A study of Mus musculus with 5 samples.

Results

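Epb4.1l3 encodes protein 4.1B, also known as DAL-1, a member of the 4.1 family of membrane skeleton proteins. The region described here is the stretch of chromosome 17 from position 67675000 to 67724999 of the array design. It holds 325 of the 387986 chromosome 17 probes and 10 of the 15383 windows of 5 kb. The stretch was chosen from the measured values, because exon-like peaks and signal between them were read there on all 5 arrays, so its levels are a description and carry no test.

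Proteins of the 4.1 family sit under the plasma membrane. Their FERM domain binds the tails of membrane proteins, their spectrin-actin binding domain ties these to the cortical cytoskeleton, and a C-terminal domain adds further partners. 4.1B is known for its place at the paranodes of myelinated axons and at contacts between cells, and as a candidate tumour suppressor in several human tumour types.

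The arrays compared double-stranded cDNA, in the Cy3 channel, with sonicated genomic DNA of the same line, in the Cy5 channel. The groups were total RNA of the line MEFF, genotype Thp/+ (2 arrays), polyA RNA of the line MEFB, genotype +/Thp (1 array), and polyA RNA of MEFF, Thp/+ (2 arrays). Each line consists of spontaneously immortalised fibroblasts from 12.5 dpc FVBN mouse embryos, and both carry the Thp deletion, on opposite parental copies. The deletion spans at least 4.6 Mb, starts at 8.6 Mb of mm9 and does not reach Epb4.1l3. Each genotype is represented by a single line, and the labels do not say whether arrays of a group came from separate cultures, so the spread between them may be technical. The level used throughout is log2(cDNA/input), centred on the median of the array, so that 0 is the median of all chromosome 17 probes. Double-stranded cDNA carries no strand, so a transcript from the other strand would be read in the same way, and in these bulk samples fewer expressing cells and less RNA per cell cannot be told apart.

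The design's positions are not those of the annotated genome. From the layout of its probes, which avoid repeated sequence, the region was placed 1917606 bp further along, at chr17:69592606-69642605 of build NCBIM37. Epb4.1l3 (ENSMUSG00000024044.8, plus strand) is annotated there from 69506150 to 69639325, with 7 transcripts. The region therefore holds the last 46.7 kb of the 133.2 kb gene and 3.28 kb beyond its annotated 3′ end. Merging the exons of all transcripts gave 25 exons, numbered from the 5′ end, of which exons 6 to 25 lie in the region. All but exon 15, which is 36 bp long, had at least 1 probe. The cDNA signal was not used for the placing. Exon probes exceeded the other probes by 2.29 on the log2 scale, as the mean over the arrays, against 1.12 at most when the annotation was moved elsewhere by up to 5 kb. That comparison used the same cDNA levels from which the region was chosen for its exon-like peaks, so it is a description.

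Exons 10 and 22 are shown because they gave some of the brightest single probes, exon 16 because it belongs to 1 transcript and was brightest in MEFB, and exon 11 because its probe stayed near 0 although 6 transcripts hold it. Capitals mark the exon and lower case the 12 intron bases on each side, all read from NCBIM37 on the plus strand at the annotated positions. In each of these the exon is preceded by AG and followed by GT, the bases of usual splice sites.
Exon 10, 98 bp, chr17:69606711-69606808: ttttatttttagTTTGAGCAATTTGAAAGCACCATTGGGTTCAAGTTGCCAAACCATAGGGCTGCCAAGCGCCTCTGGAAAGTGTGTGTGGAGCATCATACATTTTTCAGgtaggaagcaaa
Exon 11, 176 bp, chr17:69608353-69608528: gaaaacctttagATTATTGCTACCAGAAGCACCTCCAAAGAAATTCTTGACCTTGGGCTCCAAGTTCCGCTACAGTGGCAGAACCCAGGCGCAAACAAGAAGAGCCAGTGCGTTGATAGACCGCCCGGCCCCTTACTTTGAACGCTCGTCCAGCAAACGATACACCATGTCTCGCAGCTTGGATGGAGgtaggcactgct
Exon 16, 66 bp, chr17:69623441-69623506: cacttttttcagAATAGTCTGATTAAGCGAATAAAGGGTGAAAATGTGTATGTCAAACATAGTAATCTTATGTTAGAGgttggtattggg
Exon 22, 99 bp, chr17:69636053-69636151: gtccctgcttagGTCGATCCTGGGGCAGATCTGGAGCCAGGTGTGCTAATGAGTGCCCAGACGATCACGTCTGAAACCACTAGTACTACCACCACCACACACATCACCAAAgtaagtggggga

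The region was read well above the chromosome's median on every array. Its mean level over 325 probes was 1.09 and 1.02 on the MEFF total arrays, 1.78 on the MEFB polyA array, and 1.19 and 1.75 on the MEFF polyA arrays. Among 1660 stretches of 50 kb it ranked 4th on both total arrays, 4th in MEFB, and 7th and 14th on the polyA arrays. Past the annotated end of the gene the level was near 0 on each array. The 13 probes there averaged 0.02 and -0.08 in MEFF total RNA, 0.12 in MEFB and -0.02 and 0.03 in MEFF polyA RNA. The first 5 probes inside the region averaged 1.84 and 1.91 in total RNA, 3.13 in MEFB, and 2.17 and 2.88 in MEFF polyA RNA. Of these 5 the last 2 belong to the peak at exon 6, and the first 3 averaged 0.69 and 0.62 in total RNA, 0.83 in MEFB, and 0.57 and 0.72 in MEFF polyA RNA. The 5 probes just before the region averaged 0.24 and 0.21, -0.01, and 0.06 and 0.55 on the same arrays. This edge of the region lies inside the gene, in the intron before exon 6. At the far edge the last 5 probes inside averaged -0.01 and -0.32 in total RNA, 0.28 in MEFB, and -0.10 and -0.01 in MEFF polyA RNA, and the 5 probes after it averaged 0.20 and 0.33, 0.59, and 0.17 and 0.27. Both sides of that edge are past the end of the gene.

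**Figure D1:**
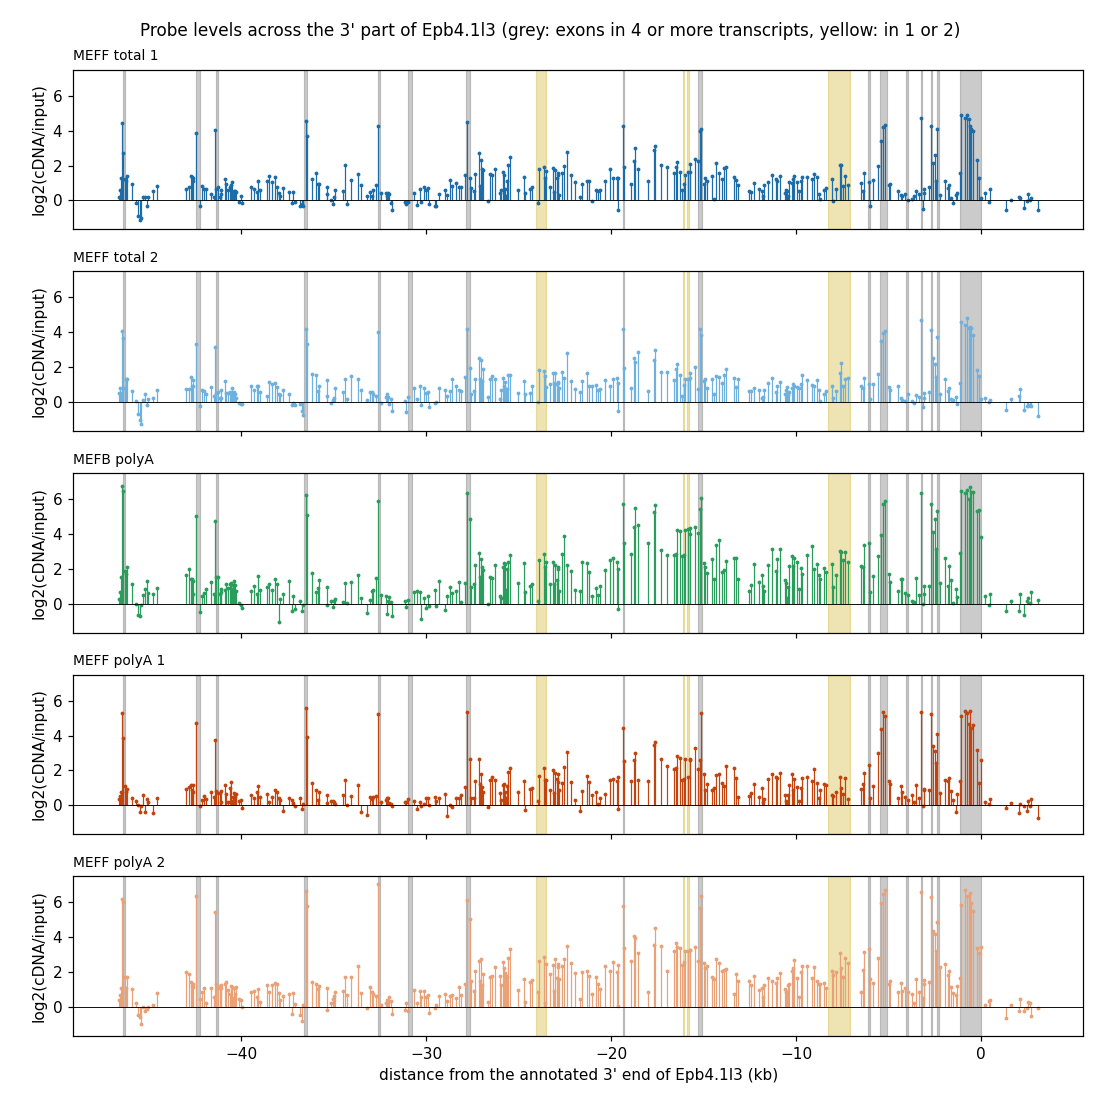
Level of each of the 325 probes, log2(cDNA/input) centred on the array median, against the distance from the annotated 3′ end of the gene in kb, 1 panel per array. Shaded bands mark annotated exons, and many of the tall probes fall on or beside them, with some in introns, while the introns between exon 12, which lies near -28 kb, and exon 18 average more than those before.

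Peaks were defined as runs of at least 2 probes, with gaps of up to 1 probe, above the 95th percentile of all chromosome 17 probes on each of the 5 arrays. There were 17 peaks with 102 such probes, and 33.2% of the region's probes passed that level on all arrays, where 2.12% of all chromosome 17 probes did. These shares are part of what the rule read. Of the 17 peaks, 10 held a probe of an annotated exon and 7 did not. The last peak, from 67720571 to 67721643 in file positions, covered exon 25 and ended 76 bp before the annotated end of the gene.

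The 9 remaining peaks with an exon probe ran, in file positions, from 67675248 to 67675347 (exon 6), 67685205 to 67685304 (exon 9), 67693905 to 67694112 (exon 12), 67697823 to 67699577 (exon 13), 67701656 to 67708516 (exons 14, 16 and 17), 67714090 to 67714409 (exon 18), 67715376 to 67715721 (exon 19), 67716162 to 67716588 (exon 20) and 67719011 to 67719812 (exons 23 and 24). The peaks with no exon probe ran from 67694364 to 67694701, 67695178 to 67695479, 67695864 to 67695985, 67696136 to 67697050, 67700435 to 67700579, 67710212 to 67710888 and 67711562 to 67712914. All 7 lie in the introns that follow exons 12, 13 and 17.

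Exons shared by most transcripts carried the tallest signal. Probes were called exon probes when at least 25 of their bases, at an assumed probe length of 50, lay in an exon, and intron probes when no base did. By this rule the probe at file position 67675248, in the peak at exon 6, was an intron probe. It stood at 4.42 and 4.07 in total RNA, 6.73 in MEFB, and 5.31 and 6.19 in MEFF polyA RNA. On each array it lay above the exon 6 probe. Other probe lengths were not tried. The 31 probes of exons found in 4 or more transcripts averaged 3.30 and 3.12 in MEFF total RNA, 5.08 in MEFB and 3.87 and 5.03 in MEFF polyA RNA. The 13 probes of exons found in 1 or 2 transcripts averaged 1.20 and 1.21 in total RNA, 2.36 in MEFB, and 1.09 and 2.16 in MEFF polyA RNA. The 263 intron probes averaged 0.88 and 0.82, 1.44, and 0.94 and 1.42 on the same arrays. On each array the order of these means was thus shared exons, then the exons of 1 or 2 transcripts, then introns, then the sequence past the gene. The measured exons of 1 or 2 transcripts are exons 13, 16 and 18. The 119 intron probes between exons 12 and 18 averaged 1.22 and 1.15 in total RNA and 2.16 in MEFB. In MEFF polyA RNA they averaged 1.35 and 2.00. Against these introns, the exons of 1 or 2 transcripts stood lower on the first total array and the first MEFF polyA array, and higher on the others. The GC content of exon and intron probes was alike, at 46.9% and 45.4%.

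**Figure D2:**
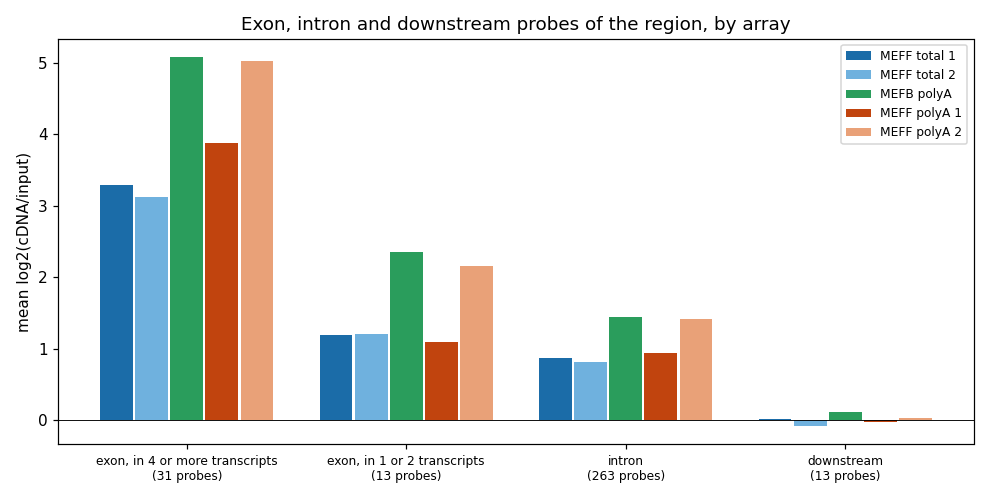
Mean level, log2(cDNA/input), of the probes in exons of 4 or more transcripts, exons of 1 or 2 transcripts, introns and the sequence past the gene, with 1 bar per array. Shared exons stand between 3.12 and 5.08, and the probes past the gene between -0.08 and 0.12.

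Single exons of the gene differed widely in level, and 13 of the 19 measured exons rest on 1 probe each. Exon 10, which encodes a stretch of the FERM domain, stood at 4.28 and 4.01 in MEFF total RNA, 5.88 in MEFB, and 5.22 and 7.08 in MEFF polyA RNA. Exon 22, in the part encoding the C-terminal domain, stood at 4.75 and 4.68 in total RNA, 6.34 in MEFB, and 5.38 and 6.62 in MEFF polyA RNA. In exon 10 both total RNA values lay below both MEFF polyA values. In exon 22 the probe was saturated on the first total array, on the first MEFF polyA array and in MEFB, so the order of its arrays is not settled. Exon 20, read by 3 probes and held by all 7 transcripts, stood at 4.00 and 3.84 in total RNA, 5.18 in MEFB, and 4.98 and 6.38 in MEFF polyA RNA. A probe of exon 20 was at the scanner's maximum on both MEFF polyA arrays and in MEFB, so these levels are lower bounds. The same holds, array by array, for exons 20, 22, 24 and 25 on the first total array, exon 22 on the first MEFF polyA array, exons 10 and 23 on the second, and exons 22 and 23 in MEFB. Exon 25, the last one, with the stop codon and the 3′ untranslated sequence, was read by 11 probes at 3.35 and 3.19 in total RNA, 5.66 in MEFB, and 3.94 and 4.99 in MEFF polyA RNA. There MEFB lay above both MEFF polyA arrays.

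Among the shared exons, 3 had a low exon probe on all arrays. Exon 11, shown above, stood at -0.06 and 0.27 in MEFF total RNA, 0.21 in MEFB, and 0.39 and -0.24 in MEFF polyA RNA. Exon 21 stood at 0.37 and 0.07 in total RNA, 0.62 in MEFB, and 0.47 and 1.11 in MEFF polyA RNA. Exon 8 stood at 0.65 and 0.51, 1.55, and 0.84 and 1.33, while the probe at its start, which overlaps it by 4 bases at the assumed length, stood at 4.05 and 3.16, 4.72, and 3.73 and 5.48. Each of the 3 was read by 1 probe, and the neighbouring exons 7, 9, 10, 12, 20 and 22 were bright. The GC content of these probes was 36.0% in exon 11, 54.0% in exon 21 and 50% in exon 8, against 54.0% in the bright exon 10. The part that probe sequence plays in these levels was not tested.

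Exons with restricted use among the transcripts stood lower. Exon 13, a coding exon of 528 bp in 1 transcript that 5 others pass over, stood at 1.23 and 1.27 in MEFF total RNA, 1.91 in MEFB, and 1.38 and 1.65 in MEFF polyA RNA, from 4 probes. The introns on either side of it, after exons 12 and 13, stood at similar levels of 1.21 and 1.11 and of 1.12 and 1.13 in total RNA, 1.63 and 1.73 in MEFB, and 1.07 and 1.77 and 1.16 and 1.93 in MEFF polyA RNA. Exon 18, the first exon of a short transcript, stood at 1.13 and 1.17 in total RNA, 2.33 in MEFB, and 0.88 and 2.28 in MEFF polyA RNA, from 8 probes. Exon 16 stood at 1.60 and 1.35 in total RNA, 4.31 in MEFB, and 1.61 and 3.20 in MEFF polyA RNA, from 1 probe. In exon 16, unlike in exons 13 and 18, the MEFB value exceeded the higher MEFF polyA value by more than 1 on the log2 scale. The intron after exon 16 stood at 4.24 in MEFB, against 2.86 and 3.32 in MEFF polyA RNA. The intron after exon 14 stood at 3.85 in MEFB, against 2.37 and 3.18. MEFB thus lay above both MEFF polyA arrays in these introns too, and its higher level was not confined to exon 16.

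Intron signal changed along the gene. The 114 intron probes before exon 12 averaged 0.55 and 0.52 in MEFF total RNA, 0.67 in MEFB, and 0.46 and 0.74 in MEFF polyA RNA. The 119 between exons 12 and 18 averaged 1.22 and 1.15 in total RNA, 2.16 in MEFB, and 1.35 and 2.00 in MEFF polyA RNA. The 30 after exon 18 averaged 0.72 and 0.68, 1.51, and 1.13 and 1.66. The stretch between exons 12 and 18 was thus the highest of the 3 on every array. Before exon 12 the total and polyA arrays of MEFF overlapped, and in the 2 later stretches both total RNA arrays lay below both polyA arrays. After quantile normalization between arrays, total RNA stood above MEFF polyA RNA by 0.16 before exon 12 and by 0.25 between exons 12 and 18, and differed by -0.28 after exon 18.

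The longest peak, 6.86 kb, covers exons 14, 16 and 17 with the introns between them. In the 3.22 kb intron after exon 14 all 15 probes lay in this peak, at a mean of 1.93 and 1.81 in MEFF total RNA, 3.85 in MEFB, and 2.37 and 3.18 in MEFF polyA RNA. The 3 intron probes between exons 16 and 17 stood at 2.02 and 1.68 in total RNA, 4.24 in MEFB, and 2.86 and 3.32 in MEFF polyA RNA. MEFB exceeded both MEFF polyA arrays in each of these introns, and these intron levels passed those of exons 13 and 18. Of the 18 introns with at least 3 probes, MEFB lay above both MEFF polyA arrays in 8 and below both in 2. Of all chromosome 17 probes taken singly, 35.6% were higher in MEFB than on both.

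Total RNA of MEFF was then compared with its polyA RNA. The contrast itself was not part of the choice of the region, but the levels of these same arrays were. The differences, window counts and p-values given for the region are therefore not independent of that choice. Both kinds of RNA were hybridised to arrays of different image series, so RNA type and array series cannot be told apart. The region's level in total RNA was 1.06 ± 0.05 against 1.47 ± 0.40 in polyA RNA (SD, n = 2 each), a difference of -0.42 on the log2 scale (SE 0.19). limma's adjusted p over 1660 stretches was 0.52. All 10 windows had a negative difference as deposited, and in 6 of them the groups did not overlap, where 20.9% of all windows on the chromosome were lower in total RNA without overlap. By limma's adjusted p over 15383 windows 0 of the 10 were called, with 0% called on the chromosome, and 3 of the 10 had an unadjusted p under 0.05, as did 7.73% of all windows.

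The sign of this difference depends on how the arrays are scaled. The SD of probe levels over the chromosome was 0.64 and 0.66 on the MEFF total arrays, 0.98 in MEFB, and 0.66 and 1.01 on the MEFF polyA arrays. Against the first polyA array the region differed by -0.14, and against the second by -0.70. With the first polyA array left out all 10 windows were called lower in total RNA, where 17.3% of all windows were, and with the second left out 3 were, where 16.2% were. In those fits the spread comes from the 2 total RNA arrays only. After quantile normalization between arrays, the difference was 0.15 (limma's adjusted p = 0.073), with 3 of the 10 windows called higher in total RNA, where 2.53% of all windows were. After normexp background correction it was -0.21 (adjusted p = 0.49), and 0 of the 10 windows were called, against 3.37% of all windows. The lowest adjusted p there was 0.051, in the window from 67715000 to 67719999, which holds exons 19 to 24. That window stood at 1.34 and 1.30 in total RNA, 2.30 in MEFB, and 1.87 and 2.54 in MEFF polyA RNA, as deposited.

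Exons and introns were also compared within each array. Of the 19 measured exons, 18 had a lower mean level in total RNA and 15 did so without overlap, and of the 18 introns with at least 3 probes 16 and 12 did. Of all chromosome 17 probes taken singly, 55.1% had the lower mean in total RNA and 22.1% did so without overlap. Of the 15 exons, 3 had a saturated probe on a total RNA array. After quantile normalization 12 of the 19 exons had the higher mean in total RNA. The exon minus intron difference within an array was 1.80 and 1.74 in total RNA, 2.83 in MEFB, and 2.11 and 2.77 in MEFF polyA RNA. Total RNA stood below MEFF polyA RNA by 0.67 without overlap. An exact two-sided permutation test of 2 arrays against 2 gave p = 0.333, the smallest it can give. After normexp these differences were 2.44 and 2.21 in total RNA, 3.11 in MEFB, and 2.75 and 3.14 in MEFF polyA RNA. After quantile normalization they were 2.22 and 2.24, 2.36, and 2.09 and 2.18, with total RNA above MEFF polyA RNA.

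The part of the gene before the region had differences of the other sign as deposited. In the 17 windows from 67590000 to 67674999, which hold the first exons and long introns, total RNA had the higher mean in 15, and in 9 of these the groups did not overlap, where 14.2% of all windows were higher in total RNA without overlap. The 523 probes there averaged 0.70 and 0.63 in MEFF total RNA, 0.57 in MEFB, and 0.37 and 0.65 in MEFF polyA RNA. limma called 0 of the 17 windows as deposited and 3 after normexp, all higher in total RNA, where 0.689% of all windows were. These windows were placed less exactly, through neighbouring blocks of probes.

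**Figure D3:**
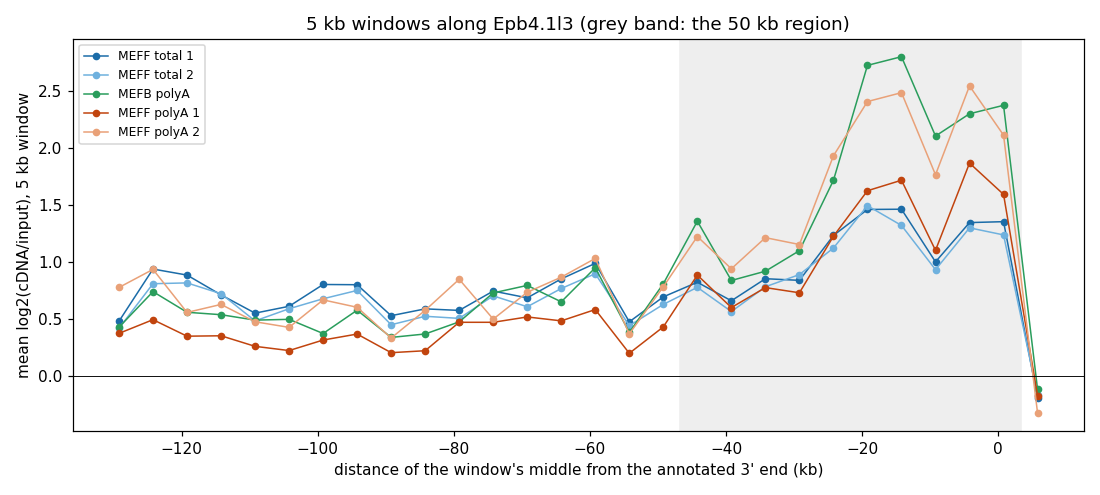
Mean level, log2(cDNA/input), of 5 kb windows against the distance of their middle from the annotated 3′ end in kb, with 1 line per array. The mean over the grey band is higher than the mean before it on each array, although single windows overlap, and in the first window past it they lie between -0.32 and -0.12. The band was itself chosen for its signal on every array.

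The 3′ region exceeded the earlier part of the same gene on each array. The region was chosen for its signal on every array, so this excess follows in part from the choice and carries no test. The excess was larger on the polyA arrays than on the total RNA arrays. The region's level minus that of the 523 earlier probes was 0.39 and 0.39 in MEFF total RNA, 1.21 in MEFB, and 0.82 and 1.10 in MEFF polyA RNA. After normexp the values were 0.48 and 0.54, 1.41, and 1.21 and 1.29. After quantile normalization they were 0.53 and 0.56 in total RNA, 0.96 in MEFB, and 0.86 and 0.80 in MEFF polyA RNA. Under each of these 3 scalings every total RNA value lay below every polyA value, and the exact permutation p of 2 MEFF arrays against 2 was 0.333, the smallest possible. This comparison was chosen after the window levels had been seen, and a test whose smallest p is 0.333 cannot decide it.

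MEFB polyA RNA was compared with MEFF polyA RNA, 2 lines with the Thp deletion on opposite parental copies. The region stood at 1.78 in MEFB, against 1.47 ± 0.40 in MEFF polyA RNA (SD, n = 2), a difference of 0.31 (SE 0.24, limma's adjusted p over 1660 stretches 0.54). The difference was 0.08 after normexp and 0.05 after quantile normalization (adjusted p = 0.95 and 0.52). With a single array, MEFB was assumed to vary like the other groups. Its value was close to the second MEFF polyA array, at 1.75, which has a like spread of probe levels, and above the first, at 1.19. Of the 10 windows 0 were called by limma's adjusted p, with 0.0065% called on the chromosome (1.27% of the 50 kb stretches), and 0 of the 10 had an unadjusted p under 0.05, which 15.7% of all windows had. After quantile normalization and after loess 1 of the 10 was called in each, higher in MEFB, where 3.69% and 2.51% of all windows were. With the first MEFF polyA array left out 7 were called, 4 higher and 3 lower in MEFB, where 45.4% of all windows were called, and with the second left out 9 were called higher, where 22.5% were. These fits set 1 array against 1, and their spread comes from the 2 total RNA arrays.

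MEFB lay above both MEFF polyA arrays in 5 of the 10 windows, where it did so in 34.7% of all windows. The 3 windows with the largest differences as deposited run from past exon 13 to exon 18. The first of them, from 67700000 to 67704999, stood at 2.72 in MEFB, against 1.62 and 2.40 in MEFF polyA RNA, with total RNA at 1.46 and 1.49, and differed from MEFF polyA RNA by 0.71 (SE 0.32, limma's adjusted p = 0.37). The window from 67705000 to 67709999 stood at 2.80 in MEFB, against 1.72 and 2.48 in MEFF polyA RNA, and the one from 67710000 to 67714999 at 2.10 against 1.10 and 1.76. MEFB was above both MEFF polyA arrays in all 3 of these. In the window from 67715000 to 67719999 MEFB, at 2.30, lay between the MEFF polyA arrays, at 1.87 and 2.54. By exon, MEFB exceeded both MEFF polyA arrays in 10 of the 19 measured exons, lay between them in 9 and below both in 0, and of all chromosome 17 probes taken singly 35.6% were higher in MEFB than on both. In 3 of the 9 a probe was saturated in MEFB, so its place there is not settled.

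**Figure D4:**
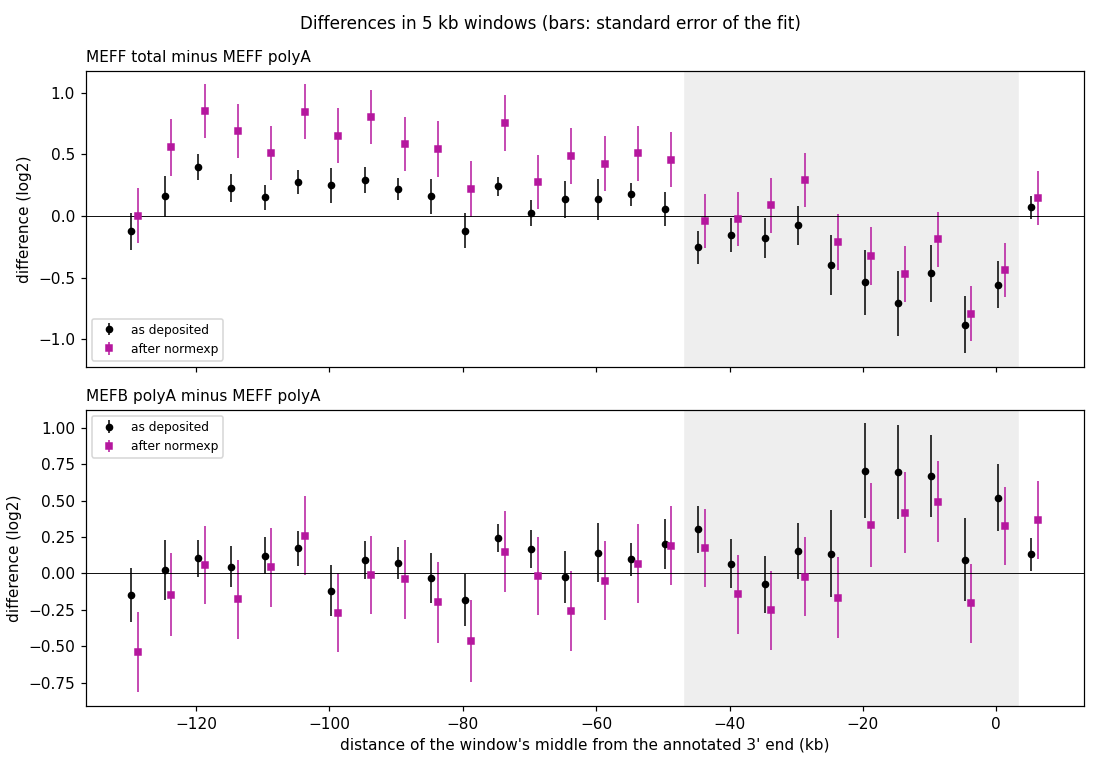
Differences in log2(cDNA/input) in 5 kb windows along the gene, MEFF total minus MEFF polyA above and MEFB polyA minus MEFF polyA below, as deposited and after normexp, with bars of 1 standard error of the limma fit. In the grey band all 10 differences between total and polyA RNA as deposited are below 0, between -0.88 and -0.08.

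The 3 stretches of 50 kb with levels most like those of the region over the 5 arrays were chosen among 1659 by Euclidean distance. The nearest, from 73075000 to 73124999 in file positions at a distance of 0.29, was placed within Birc6, which encodes a large inhibitor of apoptosis. It stood at 1.15 and 1.10 in MEFF total RNA, 2.03 in MEFB, and 1.32 and 1.79 in MEFF polyA RNA. The stretch from 32125000 to 32174999 (distance 0.36) could not be placed. The third, from 33625000 to 33674999 (distance 0.51), was placed over Apom, Bag6, Prrc2a and Aif1 and a gene listed as D17H6S53E.

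Other genes of the chromosome were read where their blocks of probes could be placed. Of a list of 11 genes for FERM proteins and the cortical cytoskeleton, 4 were placed: Myl12a, Myl12b, Ptprm and Lama1. Ezr was not placed and Frmd1 was not in the annotation, so no FERM gene of the list was read. Of the 165 windows of the placed genes, 136 lay in Ptprm and 25 in Lama1. In either comparison 0 of the 165 were called as deposited. Myl12a, which encodes a regulatory light chain of non-muscle myosin, averaged 0.93 and 0.89 over its 64 probes in MEFF total RNA, 2.07 in MEFB, and 0.89 and 1.67 in MEFF polyA RNA. Myl12b, its close relative, averaged 0.33 and 0.28 in total RNA, 0.91 in MEFB, and 0.36 and 0.85 in MEFF polyA RNA. Ptprm, a receptor phosphatase at cell contacts, and Lama1, a laminin chain, averaged between -0.37 and 0.20 on all arrays. After normexp 31 of the 165 windows were called higher in MEFB, 30 of them in Ptprm and 1 in Lama1, where 1.96% of all windows were.

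Of 8 genes listed as neighbours of Epb4.1l3, 6 were placed, and not all of them lie close to it. In file positions Epb4.1l3 ends at 67721719. Zfp161 starts at 67814300, but Tgif1 starts at 69272815, Lpin2 at 69612060 and Emilin2 at 69681674. On the other side L3mbtl4 ends at 67205351 and Arhgap28 at 66426320. Tgif1, a homeobox repressor, averaged 1.15 and 1.22 in MEFF total RNA, 1.83 in MEFB, and 1.40 and 2.49 in MEFF polyA RNA. Zfp161, the next of the listed genes past the 3′ end, averaged 0.29 and 0.30 in total RNA, 0.25 in MEFB, and 0.58 and 0.66 in MEFF polyA RNA. L3mbtl4, on the other side, averaged between -0.38 and -0.14 on all arrays. Of their 150 windows 0 were called as deposited in either comparison. After normexp 3 were called lower in total RNA and 4 higher in MEFB, all 4 in Arhgap28, where 2.68% and 1.96% of all windows were.

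Of the listed markers of cell types, 3 of 5 fibroblast markers were placed. Cyp1b1, a cytochrome P450 common in fibroblasts, averaged 0.53 and 0.51 in MEFF total RNA, 3.61 in MEFB, and 1.02 and 1.74 in MEFF polyA RNA. Crim1 averaged 0.18 and 0.14, 0.87, and 0.10 and 0.17, and Emilin2 averaged between -0.10 and 0.28. Of the 48 windows of these 3 genes 0 were called as deposited in either comparison. After normexp 22 were called higher in MEFB, 21 of them in Crim1 and 1 in Cyp1b1, where 1.96% of all windows were. In total RNA 2 were called lower after normexp, where 2.68% of all windows were. The epithelial marker Epcam lay between -0.30 and -0.14 on all arrays. Of the 4 immune markers 0 were placed.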

How the data were processed

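NimbleGen tiling arrays of mouse chromosome 17 were read as 2 intensity values per probe. The deposited PM intensity values came from NimbleScan 2.2.34, per the file headers, with cDNA in the Cy3 channel and genomic DNA in the Cy5 channel; the aligner and build of the design are not given in the sources used here. From these, log2(cDNA/input) was computed for 387986 probes and centred on each array's median. Means of 5 kb windows (at least 8 probes) and 50 kb stretches (at least 80 probes) were fitted with limma 3.58.1 in R 4.3.3 (lmFit and eBayes, 3 group means) and adjusted by Benjamini-Hochberg over all windows or stretches, with a threshold of 0.05. No dyes were swapped, so dye bias stays in the levels, and the number of arrays limits the precision. The fit and the placing were also run on simulated data. The simulated windows had the same spread on every array, unlike the measured ones, so the fit under unequal spread was not tested.

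The region and its list genes were placed on NCBIM37 with GENCODE vM1 from the layout of probes, which avoid frequent 12-base words. The best shift scored 10.6 scaled median absolute deviations above the median of all shifts, and the best shift not close to it scored 4.65. The input channel follows GC content with a correlation across probes of 0.27 at that shift, against 0.18 at most elsewhere within 20 kb and 0.274 elsewhere in the search, so the planned placing from the input channel alone did not decide. Of 1660 blocks 553 were placed. Named were the gene, every peak, the 3 stretches nearest in level, and listed genes. Members and lists were chosen with earlier results of these data known. The alternatives were other background corrections, scalings, channels, window sizes and peak levels, and leaving out arrays. Some listed markers are not reported here.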

Additional observations from a re-analysis of the deposited data

How the results depend on the processing

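No paired analysis was possible because the labels give no replicate numbers; those used here only name the arrays. The region's total minus polyA difference turned to 0.15 after quantile normalization and to 0.034 after normexp and quantile normalization, and was -0.03 after loess, -0.26 by the median of probes and -0.21 after normexp. MEFB minus MEFF polyA was 0.08 after normexp, 0.05 after quantile normalization and 0.14 after both. Without 1 MEFF array at a time the total minus polyA difference lay between -0.70 and -0.14 as deposited. In the fits without a MEFF polyA array only the 2 total RNA arrays give the spread. With normexp applied the total minus polyA difference lay between -0.33 and -0.09. Under the same omissions MEFB minus MEFF polyA lay between 0.029 (without the first polyA array) and 0.59 (without the second). Both of these set 1 array against 1. After normexp it lay between -0.043 (without the first) and 0.20. Windows of the region called between total and polyA RNA numbered 0 to 10 of 10 when an array was left out (10 without the first and 3 without the second polyA array, all lower in total RNA), 0 to 1 after normexp, and 3, all higher, after quantile normalization. For MEFB they numbered 0 to 9 (7 and 9), 1 after loess and 1 after quantile normalization. Peaks numbered 17, with 5 at the 99th percentile, 10 for runs of at least 3 probes, and 14 to 21 under the other settings, or 15 to 17 without 1 array. The cause of these changes was not tested. Saturation limits the brightest exons, and single probes limit most exon levels.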
